A study of Mus musculus with 12 samples.

Results

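The genes described here carry out mitosis and chromosome segregation. A list of 51 genes was taken by name, and a gene was tested where a probe with its symbol had a detection p-value under 0.05 on at least 3 of the 12 arrays. Of the 51, 50 had a probe and 37 were tested, among 9795 genes tested in all. Each gene was read by its probe with the highest mean signal. RNA came from bone marrow-derived macrophages of C57BL/6 mice aged 9 to 16 weeks, grown from marrow for 8 to 9 days in medium with 20% (by volume) L929-conditioned medium, which supplies the macrophage growth factor CSF-1. Each of 4 groups had 3 samples, on 1 Illumina bead array each. The first group (arrays 1, 2 and 3) had PBS and no LPS. The second (arrays 7, 8 and 9) had PBS and then 6 h of LPS, the bacterial endotoxin, at 10 ng/ml. The third (arrays 16, 17 and 18) had HDL, written nHDL in the labels, at 300 ug/ml for 24 h before the wash and the same LPS, and the fourth (arrays 22, 23 and 24) had 4% cyclodextrin, a sugar ring that extracts cholesterol, for 4 h before them. No label gives the contact time of PBS, and each agent had its own contact time, so agent and contact time cannot be told apart. Whether the 3 samples of a group are 3 animals, 3 cultures or repeats of 1 is not in the labels. All p-values rest on the spread among them, and that spread may be technical only.

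Mitosis begins when the kinase Cdk1, bound to a cyclin and switched on by Cdc25 phosphatases, drives the cell out of G2. Condensin compacts the chromosomes, kinetochores built on centromeres attach them to the spindle, and the spindle checkpoint holds the anaphase-promoting complex until every kinetochore is attached. Separase then cuts cohesin, and the central spindle and the contractile ring divide the cell. Most of these genes are transcribed late in the cell cycle. Macrophages grown with CSF-1 divide in culture, and LPS is known to stop their division.

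On the 12 arrays 33.3 to 38.6% of probes were detected. The share was 36.1 to 38.6% without LPS, 36.4 to 36.9% with LPS, 35.8 to 36.2% after HDL and 33.3 to 35.2% after cyclodextrin. Across genes, arrays of the same group correlated at 0.989 to 0.996, arrays of different LPS groups at 0.985 to 0.993, and arrays with and without LPS at 0.858 to 0.883. The macrophage markers Cd14, Csf1r, Adgre1, Fcgr1, Itgam, Lyz2 and Mertk, all 7 of the list that had a probe, were detected on all 12 arrays. The T and NK cell list (5 genes with a probe), the mast cell and basophil list (4) and the erythroid list (3) had 0 genes that passed the detection rule. Of 7 neutrophil genes 5 passed, and Elane and Mpo were on no array. The single B cell gene that passed was Cd79b, with Ms4a1 and Pax5 on no array. Of 6 fibroblast genes only Dcn passed, of 3 megakaryocyte genes only Pf4, and of 5 dendritic cell genes Itgax and Siglech.

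Values are given as log2 signal after background correction, quantile normalization and addition of an offset of 16, which pulls dim probes together and so understates their changes. A gene is called higher or lower at an adjusted p under 0.05 from limma, with Benjamini-Hochberg adjustment over all 9795 genes. Levels of different probes are not compared with each other. In bulk RNA, fewer dividing cells and less of these transcripts per cell cannot be told apart.

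LPS lowered most of the mitotic genes, and cyclodextrin before LPS lowered many of them further. With LPS, 33 of the 37 tested genes were called lower and 3 higher (Pttg1, Spc24 and Tpx2), where 38.4% and 22.2% of all genes tested were called lower and higher. Their median log2 fold change was -1.78, against -0.14 over all genes. After cyclodextrin, 21 were called lower against PBS and 0 higher, where 2.71% and 2.37% of all genes were (median -0.57, against 0.00). After HDL, 5 were called lower and 0 higher, where 1.10% and 0.796% of all genes were (median -0.25, against 0.00). Against HDL directly, 10 were lower after cyclodextrin and 0 higher, where 1.53% and 1.24% of all genes were (median -0.34, against 0.01). The HDL and the cyclodextrin comparison use the same PBS LPS arrays. At an unadjusted p under 0.05, limma put 15 genes lower and 3 higher (Mad2l1, Incenp and Cenpk) after HDL, where 9.32% and 8.55% of all genes were. It put 24 lower and 0 higher after cyclodextrin, where 9.97% and 9.24% of all genes were, and 19 lower and 0 higher against HDL, where 9.47% and 8.97% were.

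A gene detected only on the arrays without LPS had to be lower elsewhere to be in the list at all. Espl1 was of that kind, and Cdc25b was detected on the 3 arrays without LPS and 1 with LPS. Counts were therefore also read over the 28 of the 37 genes detected on all 12 arrays. Of these, 25 were lower and 3 higher with LPS, where 40.7% of the 7510 genes detected on all 12 arrays were lower. After HDL 4 of the 28 were lower, where 1.13% of the 7510 were, and after cyclodextrin 15, where 2.30% were. Between cyclodextrin and HDL 9 of the 28 were lower, where 1.25% of the 7510 were. The median log2 fold change of the 28 was -1.76 with LPS, -0.12 after HDL, -0.56 after cyclodextrin and -0.40 against HDL.

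**Figure D1:**
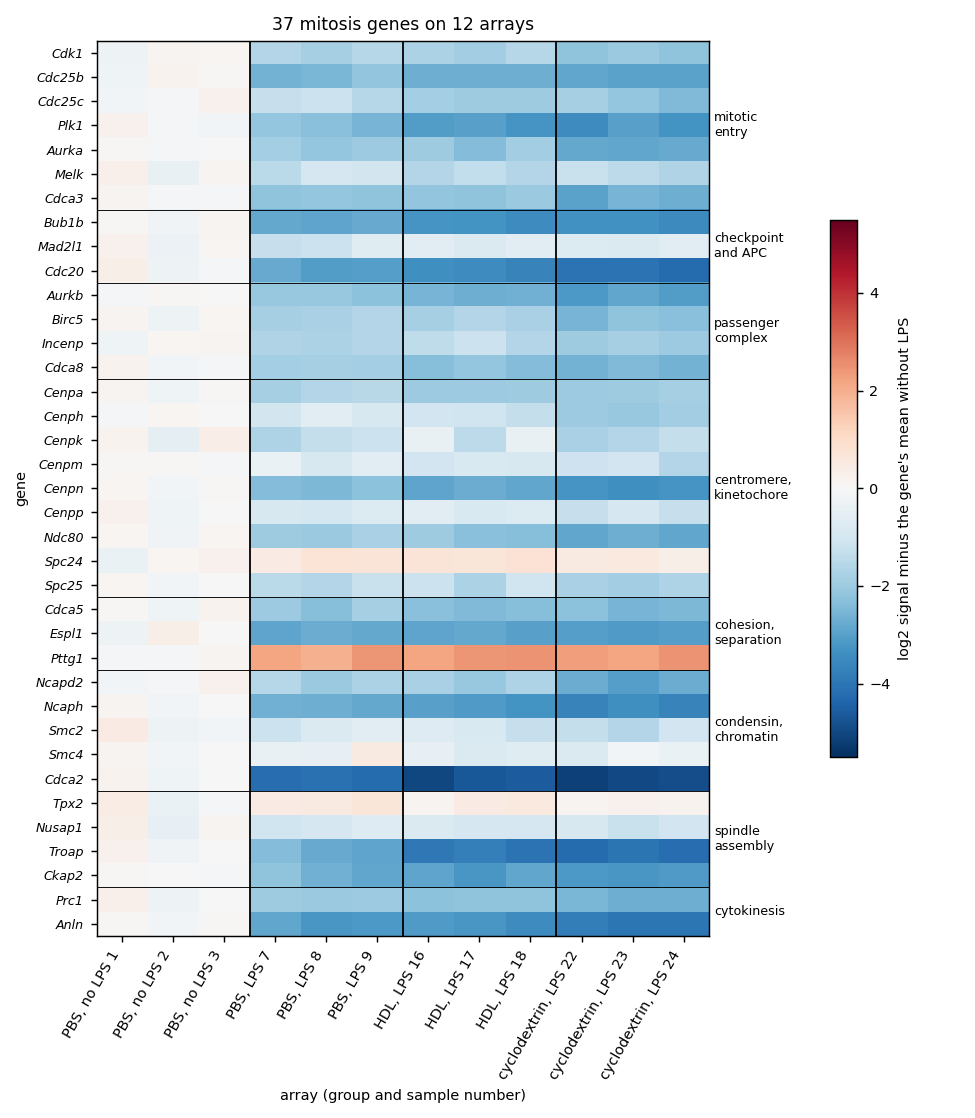
Each row is 1 of the 37 tested genes, grouped by role, and each column 1 array. Colour gives the log2 signal minus that gene's mean over the 3 arrays without LPS. The LPS columns are blue for 34 of the 37 genes by their mean over the PBS LPS arrays, Pttg1, Spc24 and Tpx2 are red on all 9 LPS arrays, and blue deepens in many rows on the cyclodextrin arrays.

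The promoters of these genes are shown because cell cycle genes are known for a pair of sequence elements. NF-Y binds the CCAAT box, and the cell cycle genes homology region (CHR), TTTGAA or TTTAAA, binds the MuvB core of the DREAM complex and of the complexes of B-MYB and FOXM1. RefSeq promoter windows (GRCm38.p6, 250 bases before to 50 bases after each start) were searched for these letters on both strands. A window was found for 43 of the 51 genes (47 windows), and 8 genes had none (Spc24, Cdca2, Ccna2, Tpx2, Incenp, Cdc25c, Aurkb and Smc4). CCAAT was in 36 of the 47 windows (76.6%), and in 37.4% of all 32851 windows of this length. At least 2 CCAAT were in 44.7% of the 47 and in 11.7% of all. TTTGAA was in 59.6% of the 47 and in 17.9% of all, and TTTAAA in 17% and 13.2%. A CHR between 60 bases before the start and the end of the window was in 28 of the 47 (59.6%) and in 9.12% of all, and CCAAT together with a CHR anywhere in the window in 27 (57.4%) and in 10.7% of all. Over the 33 windows of the tested genes alone the shares were lower. They were 69.7% for CCAAT, 33.3% for at least 2 CCAAT, 51.5% for a CHR from 60 bases before the start and 48.5% for both elements. All these shares describe letters in a window, not bound sites, and were not tested.

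The first 4 windows printed belong to genes called lower after cyclodextrin that held at least 2 CCAAT and a CHR near the start. Each runs 5′ to 3′ along the gene from 150 bases before to 50 bases after the start, with CCAAT (or its complement ATTGG) and the CHR (either letter form, either strand) in capitals. They lie at chr4:118437294-118437493 (minus strand), chr2:172370521-172370720 (minus strand), chr4:124936868-124937067 (minus strand) and chr6:124830026-124830225 (plus strand), in that order. In Cdca8 a CHR and an ATTGG overlap. The windows of Aurka and Cdca3 lie inside the annotated spans of their genes, so their starts are not the outermost ones.
Cdc20: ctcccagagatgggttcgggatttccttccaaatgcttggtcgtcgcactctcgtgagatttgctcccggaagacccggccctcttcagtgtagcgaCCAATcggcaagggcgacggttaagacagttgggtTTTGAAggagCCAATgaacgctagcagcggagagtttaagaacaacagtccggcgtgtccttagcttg
Aurka: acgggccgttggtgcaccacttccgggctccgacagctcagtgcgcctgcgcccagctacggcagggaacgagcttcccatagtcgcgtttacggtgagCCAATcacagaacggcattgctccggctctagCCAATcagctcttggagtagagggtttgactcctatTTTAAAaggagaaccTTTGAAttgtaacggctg
Cdca8: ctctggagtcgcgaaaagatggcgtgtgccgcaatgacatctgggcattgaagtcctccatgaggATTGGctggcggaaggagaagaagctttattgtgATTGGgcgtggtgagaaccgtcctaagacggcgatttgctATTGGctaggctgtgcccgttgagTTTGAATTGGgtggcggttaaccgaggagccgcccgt
Cdca3: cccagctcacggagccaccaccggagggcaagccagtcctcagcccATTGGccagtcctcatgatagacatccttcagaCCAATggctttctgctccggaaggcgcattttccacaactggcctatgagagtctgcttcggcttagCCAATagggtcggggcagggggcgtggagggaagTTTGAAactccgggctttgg
The window of Pttg1, picked because the gene rose with LPS, is at chr11:43425932-43426131 (minus strand) and held neither element. It lies inside the annotated span of the gene, so the outer end of the gene was not searched. The windows of Cenpp, Mad2l1, Melk, Ncaph and Nusap1 also held neither, and all these genes were called lower with LPS. The window of Troap, called lower after HDL and after cyclodextrin by a probe not above background there, is at chr15:99074823-99075022 (plus strand) and held CCAAT 3 times, 2 of them whole in the stretch shown (the capitals at its first bases are the end of the other), and no CHR.
Pttg1: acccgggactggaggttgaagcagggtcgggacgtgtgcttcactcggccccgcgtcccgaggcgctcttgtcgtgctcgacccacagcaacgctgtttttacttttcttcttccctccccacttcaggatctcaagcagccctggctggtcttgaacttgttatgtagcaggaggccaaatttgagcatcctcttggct
Troap: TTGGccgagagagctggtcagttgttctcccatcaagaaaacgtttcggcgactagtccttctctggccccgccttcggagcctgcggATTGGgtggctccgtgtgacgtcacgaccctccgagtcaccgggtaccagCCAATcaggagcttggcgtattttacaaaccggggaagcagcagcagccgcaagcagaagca
Among the tested genes with a window, a CHR near the start was found for 10 of the 18 called lower after cyclodextrin and for 6 of the 12 not called. CCAAT was found for 14 of the 18 and 6 of the 12, and neither of these 2 for 2 of the 18 and 5 of the 12.

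**Figure D2:**
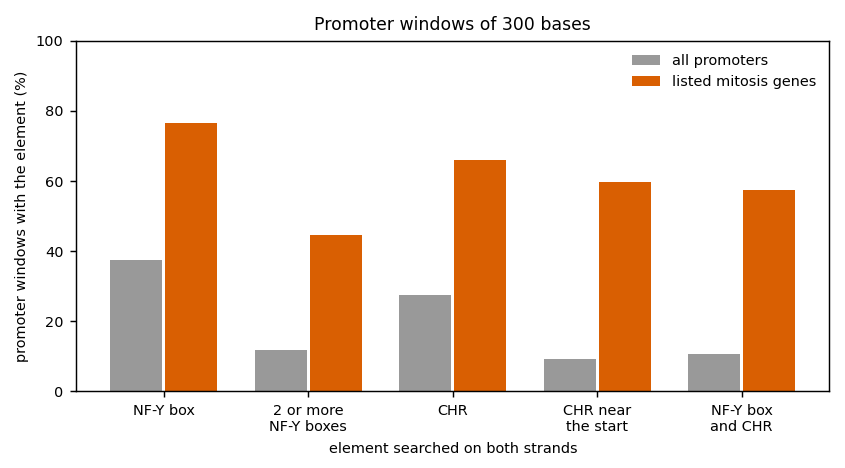
Bars give the percentage of promoter windows that hold each element on either strand, for all 32851 RefSeq windows (grey) and the 47 windows of the listed genes (orange). NF-Y box stands for CCAAT, and near the start for a CHR from 60 bases before the start to the end of the window. The CHR near the start was in 59.6% of the listed genes' windows and 9.12% of all.

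Kinases and phosphatases of mitotic entry fell with LPS, and most of them were lower again after cyclodextrin. Of 7 tested genes, 7 were called lower with LPS, 1 after HDL and 5 after cyclodextrin. Over all genes tested, 38.4% were called lower with LPS, 1.10% after HDL, 2.71% after cyclodextrin and 1.53% after cyclodextrin against HDL. With LPS 22.2% were called higher. The counts of this class and of those below, each of few genes, are to be read beside these shares. The signal of Cdk1, the kinase that starts mitosis, was 11.35, 11.76 and 11.73 without LPS, 10.02, 9.79 and 10.03 with LPS, 9.88, 9.69 and 10.04 after HDL and LPS, and 9.40, 9.59 and 9.42 after cyclodextrin and LPS. The arrays with LPS all lay below those without, HDL overlapped PBS, and the 3 cyclodextrin arrays lay below the other LPS arrays. Cdk1 fell by 1.67 ± 0.14 (SE) on the log2 scale with LPS (adjusted p = 7.54e-08). It did not pass the test after cyclodextrin (-0.47 ± 0.14, 0.0640) or HDL (-0.08, 95% interval -0.37 to 0.22).

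The polo-like kinase Plk1, which acts at centrosomes and kinetochores, read 11.16, 10.83 and 10.78 without LPS, 8.80, 8.61 and 8.36 with LPS, 7.85, 7.95 and 7.67 after HDL and LPS, and 7.48, 7.93 and 7.65 after cyclodextrin and LPS. The HDL and cyclodextrin arrays of Plk1 overlapped each other and lay below every PBS LPS array. Plk1 was 5.04-fold lower with LPS (-2.33 ± 0.15, adjusted p = 6.32e-09), then lower after HDL (-0.77 ± 0.15, 0.0261) and after cyclodextrin (-0.90 ± 0.15, 0.00404). The HDL call was lost without PBS LPS array 7 or 8 or HDL array 16 or 18 (adjusted p up to 0.131). The difference between cyclodextrin and HDL was -0.13, with a 95% interval of -0.46 to 0.20.

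Aurka, the aurora kinase of the spindle poles, read 9.87, 9.77 and 9.82 without LPS, 7.96, 7.70 and 7.82 with LPS, 7.85, 7.44 and 7.91 after HDL and LPS, and 7.01, 6.97 and 7.05 after cyclodextrin and LPS. Here HDL overlapped PBS, while each cyclodextrin array was lower than each HDL array. Aurka fell with LPS (-2.0 ± 0.13, adjusted p = 4.49e-09), and after cyclodextrin it was lower than after PBS (-0.81 ± 0.13, 0.00213) and lower than after HDL (-0.72 ± 0.13, 0.00927, lost in a fit of these 2 groups alone). Cdca3, an adaptor that removes the mitotic inhibitor Wee1, read 11.64, 11.44 and 11.39 without LPS, 9.29, 9.36 and 9.29 with LPS, 9.30, 9.26 and 9.44 after HDL and LPS, and 8.56, 8.92 and 8.79 after cyclodextrin and LPS. It showed the same arrangement of groups, with LPS at -2.18 ± 0.12 (7.08e-10), cyclodextrin against PBS at -0.56 ± 0.12 (0.0138) and against HDL at -0.58 ± 0.12 (0.0184). The first cyclodextrin call was lost without PBS LPS array 8 or cyclodextrin array 22 (adjusted p up to 0.0642), and the second without HDL array 16 or 18 or cyclodextrin array 22 or 24 (up to 0.0745).

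Cdc25c, a phosphatase that activates Cdk1, was lower with LPS (-1.32 ± 0.16, adjusted p = 4.56e-06) and after cyclodextrin (-0.82 ± 0.16, 0.00881), and was detected on 1 of 3 cyclodextrin arrays. Its relative Cdc25b was lower with LPS (-2.43 ± 0.13, 7.38e-10, detected on 1 of 3 PBS LPS arrays). Its other probe, detected on 9 arrays where the one used was on 4, lay at only -0.50 ± 0.19 with LPS. That was called lower in the limma fit over all passing probes (adjusted p = 0.0322). Without array 1 or 3, this other probe is the brightest and the LPS call is lost (adjusted p up to 0.114). Cdc25b was called lower after cyclodextrin (adjusted p = 0.0432) on arrays where it was not above background, so no fold is given. That call was lost without array 8, 9, 16, 17, 22, 23 or 24, and without array 1, 2 or 3 its other probe is the one used, at 0.02. Melk, a kinase of dividing cells, was lower with LPS (-1.13 ± 0.19, 0.000121) and detected on 2 of 3 PBS LPS arrays, 0 of 3 HDL and 1 of 3 cyclodextrin arrays. The cyclins Ccna2 and Ccnb2 and the kinase Nek2 were detected on no array, and Ccnb1 had no probe.

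Of 3 tested genes of the spindle checkpoint and the anaphase-promoting complex, 3 were lower with LPS, 1 after HDL and 2 after cyclodextrin. Bub1b, whose protein BubR1 holds back the anaphase-promoting complex, read 10.54, 10.27 and 10.62 without LPS, 7.68, 7.59 and 7.70 with LPS, 7.22, 7.17 and 7.03 after HDL and LPS, and 7.15, 7.15 and 6.97 after cyclodextrin and LPS. The HDL and cyclodextrin arrays overlapped each other and were all below PBS. It was 7.05-fold lower with LPS (-2.82 ± 0.12, adjusted p = 3.37e-11), lower after HDL (-0.52 ± 0.12, 0.0407) and after cyclodextrin (-0.57 ± 0.12, 0.0122). Its other probe lay at -2.18, -0.33 and -0.13, with a call only for LPS. In the limma fit over all passing probes the HDL value of the used probe was not called either (adjusted p = 0.0571). The HDL call was lost without any 1 of the PBS LPS or HDL arrays, array 3 or array 22 (adjusted p up to 0.153), and the cyclodextrin call without array 7 or 24 (up to 0.0593).

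Cdc20, the activator of the anaphase-promoting complex, read 10.33, 9.74 and 9.94 without LPS, 7.24, 6.95 and 6.98 with LPS, 6.61, 6.55 and 6.32 after HDL and LPS, and 5.93, 5.93 and 5.77 after cyclodextrin and LPS. The 4 groups did not overlap and lay in the order PBS without LPS, PBS, HDL and cyclodextrin. Cdc20 was 7.69-fold lower with LPS (-2.94 ± 0.15, adjusted p = 3.30e-10) and a further 2.26-fold lower after cyclodextrin (-1.18 ± 0.15, 0.000451). The step from PBS to HDL did not pass (-0.56 ± 0.15, 0.0731), and that from HDL to cyclodextrin did (-0.61 ± 0.15, 0.0426) but was lost in 9 of 12 omissions of 1 array (up to 0.127, all but arrays 1, 2 and 7). Its 3 other probes were lower with LPS too, at -2.93, -2.77 and -2.26, and after cyclodextrin at -0.75, -0.63 and -0.22, of which -0.75 was called. Against HDL the other probes lay at -0.28, -0.26 and -0.07, none called. In the limma fit over all passing probes the used probe was not called against HDL either (adjusted p = 0.0504).

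Mad2l1, the checkpoint protein that sequesters Cdc20, read 11.29, 10.75 and 11.16 without LPS, 9.79, 9.89 and 10.39 with LPS, 10.44, 10.27 and 10.45 after HDL and LPS, and 10.31, 10.28 and 10.43 after cyclodextrin and LPS. It was lower with LPS (-1.04 ± 0.16, adjusted p = 6.61e-05), and HDL (0.36 ± 0.16, 0.271) and cyclodextrin (0.32 ± 0.16, 0.315) gave positive values without a call. The HDL and cyclodextrin arrays lay above PBS LPS arrays 7 and 8, and array 9 lay among them. Its other probe gave -0.83, 0.42 and 0.45. Bub1 and Ttk, checkpoint kinases, were detected on no array, and Ube2c, the ubiquitin-conjugating enzyme of the anaphase-promoting complex, on at most 2.

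**Figure D3:**
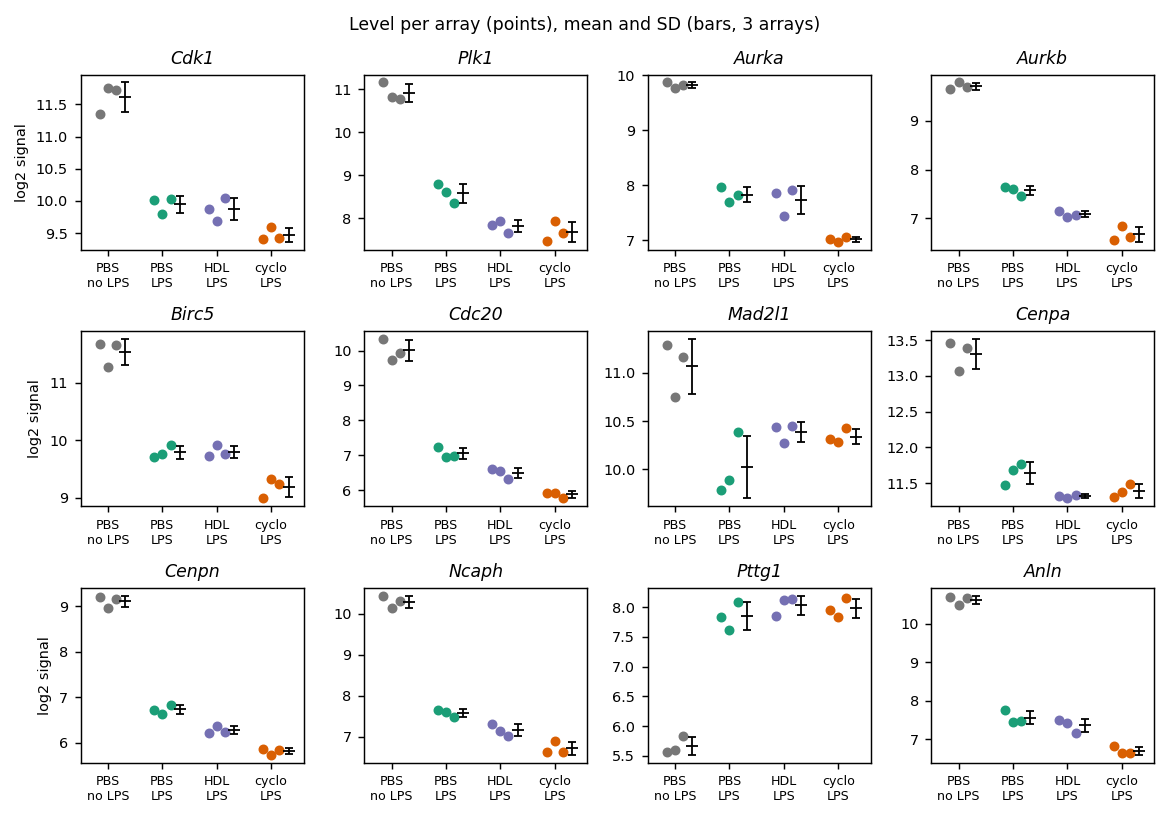
Log2 signal of 12 genes on each array (points), with the mean and SD of the 3 arrays of a group (bars), each panel on its own scale. Cdc20, Cenpn and Ncaph step down over the 4 groups, Plk1 is at like levels after HDL and cyclodextrin, Aurka and Birc5 are lower only on the cyclodextrin arrays among the LPS groups, and Pttg1 is higher on all 9 LPS arrays.

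The chromosomal passenger complex corrects wrong attachments and later helps cytokinesis. Its 4 genes were all called lower with LPS, 1 after HDL and 3 after cyclodextrin. The kinase Aurkb read 9.65, 9.79 and 9.70 without LPS, 7.65, 7.61 and 7.47 with LPS, 7.16, 7.03 and 7.07 after HDL and LPS, and 6.56, 6.85 and 6.62 after cyclodextrin and LPS. The 4 groups did not overlap. Aurkb was lower with LPS (-2.13 ± 0.11, adjusted p = 4.07e-10), after HDL (-0.49 ± 0.11, 0.0406) and after cyclodextrin (-0.90 ± 0.11, 0.000360), while cyclodextrin against HDL missed the threshold (-0.41 ± 0.11, 0.0621). The HDL call was lost in 9 of 12 omissions of 1 array (up to 0.173, all but arrays 1, 2 and 23). Birc5, which encodes survivin, read 11.67, 11.27 and 11.65 without LPS, 9.70, 9.75 and 9.91 with LPS, 9.72, 9.91 and 9.76 after HDL and LPS, and 8.99, 9.33 and 9.23 after cyclodextrin and LPS. HDL overlapped PBS, and every cyclodextrin array was below both. Birc5 was lower with LPS (-1.74 ± 0.13, 3.34e-08), after cyclodextrin (-0.60 ± 0.13, 0.0176) and against HDL (-0.61 ± 0.13, 0.0272). Its 3 probes were called lower with LPS and after cyclodextrin alike (cyclodextrin at -0.60, -0.66 and -0.70). Without array 8, 9 or 22 the cyclodextrin call was lost (up to 0.0788), and the call against HDL without array 16, 17, 18, 22 or 24 (up to 0.0990).

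Cdca8, which encodes borealin, was lower with LPS (-1.86 ± 0.12, adjusted p = 5.63e-09) and after cyclodextrin (-0.69 ± 0.12, 0.00482). Incenp, the scaffold of the complex, was lower with LPS (-1.68 ± 0.13, 4.01e-08) and then went opposite ways without a call, at 0.28 ± 0.13 after HDL (0.272) and -0.25 ± 0.13 after cyclodextrin (0.321). The direct difference between the agents was called (-0.53 ± 0.13, 0.0446) and was lost in 9 of 12 omissions of 1 array (up to 0.126, all but arrays 1, 2 and 18).

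Centromere and kinetochore genes fell with LPS in 8 of 9 tested cases. One was lower after HDL, 4 after cyclodextrin and 3 after cyclodextrin against HDL. Cenpa, the histone H3 variant that marks centromeres, read 13.46, 13.07 and 13.39 without LPS, 11.48, 11.68 and 11.77 with LPS, 11.32, 11.29 and 11.34 after HDL and LPS, and 11.30, 11.37 and 11.49 after cyclodextrin and LPS. Cenpa was lower with LPS (-1.67 ± 0.12, adjusted p = 2.34e-08), but neither HDL (-0.32 ± 0.12, 0.188) nor cyclodextrin (-0.25 ± 0.12, 0.286) passed. The HDL arrays all lay below PBS, and the cyclodextrin arrays overlapped PBS by 1 array.

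Cenpn, which reads the Cenpa nucleosome, read 9.20, 8.96 and 9.15 without LPS, 6.73, 6.64 and 6.84 with LPS, 6.22, 6.38 and 6.24 after HDL and LPS, and 5.86, 5.74 and 5.84 after cyclodextrin and LPS. The 4 groups did not overlap, and the cyclodextrin arrays were the lowest. Cenpn was lower with LPS (-2.37 ± 0.11, adjusted p = 9.87e-11), after HDL (-0.46 ± 0.11, 0.0472), after cyclodextrin (-0.92 ± 0.11, 0.000255) and after cyclodextrin against HDL (-0.47 ± 0.11, 0.0356). The HDL call was lost in 10 of 12 omissions of 1 array (up to 0.166, all but arrays 1 and 2), and the call between the agents in 7 (up to 0.0975, arrays 3, 16, 17, 18, 22, 23 and 24). Over all 23 alternatives the HDL call was lost in 17, among them median scaling and the authors' processed values. Its other probe lay at -2.35, -0.33, -0.83 and -0.50 in the same order. In the limma fit over all passing probes the HDL value was called for neither probe (adjusted p = 0.0682 for the one used).

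Cenph, of the inner kinetochore, read 7.13, 7.34 and 7.28 without LPS, 6.26, 6.65 and 6.36 with LPS, 6.18, 6.15 and 5.92 after HDL and LPS, and 5.24, 5.15 and 5.32 after cyclodextrin and LPS. The cyclodextrin arrays stood apart from the rest, and the gene was detected on all 3 arrays of each other group and on 0 of 3 cyclodextrin arrays. It was lower with LPS (-0.83 ± 0.13, adjusted p = 4.72e-05), at least 1.99-fold lower after cyclodextrin than after PBS (0.000153) and at least 1.57-fold lower than after HDL (0.00325). Ndc80, the microtubule-binding subunit of the outer kinetochore, read 9.30, 8.97 and 9.28 without LPS, 7.22, 7.13 and 7.39 with LPS, 7.24, 6.89 and 6.86 after HDL and LPS, and 6.31, 6.51 and 6.34 after cyclodextrin and LPS. HDL overlapped PBS and cyclodextrin lay below both. Ndc80 was lower with LPS (-1.94 ± 0.14, 1.27e-08), after cyclodextrin (-0.86 ± 0.14, 0.00213) and against HDL (-0.61 ± 0.14, 0.0297, lost without array 16, 22 or 24, up to 0.107).

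Spc24 and Spc25, partners of Ndc80 in the same complex, differed. Spc25 was lower with LPS (-1.43 ± 0.16, adjusted p = 2.12e-06). The probe used for Spc24 was called higher with LPS (0.62 ± 0.15, 0.00189), while its other probe, also detected on all 12 arrays, was called lower (-0.63 ± 0.16). After cyclodextrin the other probe was called lower (-0.84 ± 0.16) and the one used was not (-0.17 ± 0.15). Averaging the probes left Spc24 at 0.00 with LPS, so it has no settled direction.

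Among the other inner kinetochore genes, Cenpk (-1.39 ± 0.27, adjusted p = 0.000433), Cenpp (-0.87 ± 0.14, 9.13e-05) and Cenpm (-0.62 ± 0.16, 0.00320) were lower with LPS. Cenpm alone of them was called after cyclodextrin (-0.65 ± 0.16, 0.0285), by each of its 3 probes, and lost the call without array 7, 9 or 24 (up to 0.133). Cenpk lay at 6.79, 5.76 and 6.80 on the HDL arrays, a range wider than the difference of the means from PBS. The kinetochore motor Cenpe was detected on no array, Nuf2 on at most 1 and Cenpf on at most 2.

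Genes of sister chromatid separation moved in both directions with LPS, and 0 of the 3 tested were called after HDL or cyclodextrin. Espl1, which encodes separase, read 7.52, 8.11 and 7.78 without LPS, 4.89, 5.07 and 4.99 with LPS, 4.91, 5.0 and 4.81 after HDL and LPS, and 4.78, 4.68 and 4.76 after cyclodextrin and LPS. It was detected on the 3 arrays without LPS and on none of the other 9, and was at least 5.79-fold lower with LPS (adjusted p = 1.89e-10). The signal was below background in all 3 LPS groups, so no difference between them is given. Pttg1, which encodes securin, the inhibitor of separase, read 5.57, 5.59 and 5.83 without LPS, 7.84, 7.62 and 8.09 with LPS, 7.85, 8.11 and 8.14 after HDL and LPS, and 7.95, 7.84 and 8.15 after cyclodextrin and LPS. Every LPS array was higher than every array without LPS, and the 3 LPS groups overlapped. Pttg1 was 4.56-fold higher with LPS (2.19 ± 0.14, 5.04e-09), while 33 of the 37 fell, and stayed called higher in each of the 23 alternatives that were run. It had 1 passing probe. After HDL it was at 0.18 (95% interval -0.12 to 0.49) and after cyclodextrin at 0.13 (-0.18 to 0.43). Cdca5, which encodes the cohesin protector sororin, was lower with LPS (-2.05 ± 0.15, 1.93e-08).

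Condensin genes were lower with LPS in 4 of 5 tested cases, counting Cdca2. After cyclodextrin 3 were lower, after HDL 0 and against HDL 1. Ncapd2, a regulatory subunit of condensin I, read 9.16, 9.25 and 9.56 without LPS, 7.77, 7.28 and 7.60 with LPS, 7.55, 7.26 and 7.61 after HDL and LPS, and 6.59, 6.29 and 6.60 after cyclodextrin and LPS. HDL overlapped PBS and the cyclodextrin arrays lay well below both. It was lower with LPS (-1.78 ± 0.16, adjusted p = 1.57e-07), after cyclodextrin (-1.05 ± 0.16, 0.00146) and against HDL (-0.98 ± 0.16, 0.00496). Its other probes disagreed after cyclodextrin, with 1 at 0.50 ± 0.17 and 1 at -0.62 ± 0.22, neither called, and the mean of its probes ended both cyclodextrin calls.

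Smc2, a core ATPase of condensin, read 7.60, 6.85 and 6.99 without LPS, 5.98, 6.36 and 6.51 with LPS, 6.45, 6.29 and 5.89 after HDL and LPS, and 5.84, 5.52 and 6.11 after cyclodextrin and LPS. Smc2 was lower with LPS (-0.86 ± 0.22, adjusted p = 0.00299), and the 3 LPS groups overlapped with no call between them. Smc4, its partner ATPase, read 6.03, 5.75 and 5.89 without LPS, 5.48, 5.45 and 6.37 with LPS, 5.45, 5.11 and 5.22 after HDL and LPS, and 5.11, 5.75 and 5.52 after cyclodextrin and LPS. The groups with and without LPS overlapped, with array 9 far above arrays 7 and 8. It was the only tested gene not called with LPS (-0.12 ± 0.22, 0.669), was detected on 1 of 3 HDL and 2 of 3 cyclodextrin arrays, and its 2 other probes were called lower with LPS (-1.14 and -0.52). Ncaph, the kleisin of condensin I, was lower with LPS (-2.70 ± 0.13, 1.20e-10) and after cyclodextrin (-0.86 ± 0.13, 0.00129), and its other probe lay at -2.47 and, without a call, -0.52. Ncapg was detected on at most 1 array.

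Cdca2, which encodes the chromatin protein Repo-Man, had the largest LPS change of the list, 18.1-fold (-4.18 ± 0.14, adjusted p = 2.80e-12). It was detected on 0 of 3 HDL and 0 of 3 cyclodextrin arrays. After cyclodextrin it was at least 1.07-fold lower than after PBS (0.00416), and the bound of at least 1.17-fold after HDL came without a call (0.0544).

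Spindle assembly genes were mixed. With LPS 3 of 4 were lower and 1 higher, and after cyclodextrin 2 were lower. Tpx2, which targets aurora A to the spindle, read 8.75, 7.98 and 8.29 without LPS, 8.81, 8.85 and 9.02 with LPS, 8.51, 8.80 and 8.89 after HDL and LPS, and 8.51, 8.59 and 8.54 after cyclodextrin and LPS. It was higher with LPS (0.55 ± 0.17, adjusted p = 0.00980) with no overlap, but array 1 (8.75) lay only just below array 7 (8.81). The call was lost without array 2 (0.0540) and with median scaling, where the value was 0.15. Nusap1, which bundles spindle microtubules, read 10.90, 10.11 and 10.73 without LPS, 9.49, 9.67 and 9.86 with LPS, 9.78, 9.64 and 9.67 after HDL and LPS, and 9.71, 9.36 and 9.51 after cyclodextrin and LPS. Nusap1 was lower with LPS (-0.91 ± 0.18, 0.000433), and the LPS groups overlapped.

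Troap, a spindle protein first named as a partner of the adhesion protein trophinin, read 9.27, 8.87 and 9.01 without LPS, 6.66, 6.28 and 6.17 with LPS, 5.12, 5.30 and 4.99 after HDL and LPS, and 4.83, 5.04 and 4.88 after cyclodextrin and LPS. It was detected on all 6 arrays without HDL or cyclodextrin and on none of the 6 with them, and the PBS LPS arrays lay above both. It was 6.40-fold lower with LPS (-2.68 ± 0.15, adjusted p = 8.19e-10), at least 2.08-fold lower after HDL (0.00149) and at least 1.92-fold lower after cyclodextrin (0.000150). Its other probe, detected on all 12 arrays, was at -0.61 ± 0.13 with LPS, 0.09 ± 0.13 after HDL and 0.03 ± 0.13 after cyclodextrin, so both later calls rest on 1 probe. Ckap2, a microtubule stabilizer, was lower with LPS (-2.57 ± 0.15, 1.62e-09, detected on 2 of 3 PBS LPS arrays) and called lower after cyclodextrin (0.0347) on arrays where it was not above background, so no fold is given. That call was lost without array 7, 8, 22, 23 or 24 (up to 0.148). Hmmr was detected on no array.

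Both tested genes of cytokinesis were lower with LPS and again after cyclodextrin, and neither was called after HDL. Prc1, which crosslinks microtubules in the central spindle, read 12.62, 12.03 and 12.31 without LPS, 10.35, 10.28 and 10.31 with LPS, 10.05, 10.09 and 10.10 after HDL and LPS, and 9.79, 9.64 and 9.63 after cyclodextrin and LPS. The 4 groups did not overlap. It was lower with LPS (-2.01 ± 0.13, adjusted p = 6.16e-09) and after cyclodextrin (-0.63 ± 0.13, 0.0138, lost without array 7 or 24, up to 0.0569). Anln, the anillin of the contractile ring, read 10.70, 10.49 and 10.67 without LPS, 7.75, 7.44 and 7.47 with LPS, 7.49, 7.41 and 7.17 after HDL and LPS, and 6.82, 6.64 and 6.64 after cyclodextrin and LPS. The cyclodextrin arrays lay below all other arrays, and HDL overlapped PBS. Anln was 8.36-fold lower with LPS (-3.06 ± 0.13, 3.10e-11), and lower after cyclodextrin than after PBS (-0.85 ± 0.13, 0.00136) and after HDL (-0.66 ± 0.13, 0.0135, lost without array 16, 23 or 24, up to 0.0591). Racgap1 was detected on no array and Ect2 on at most 2.

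**Figure D4:**
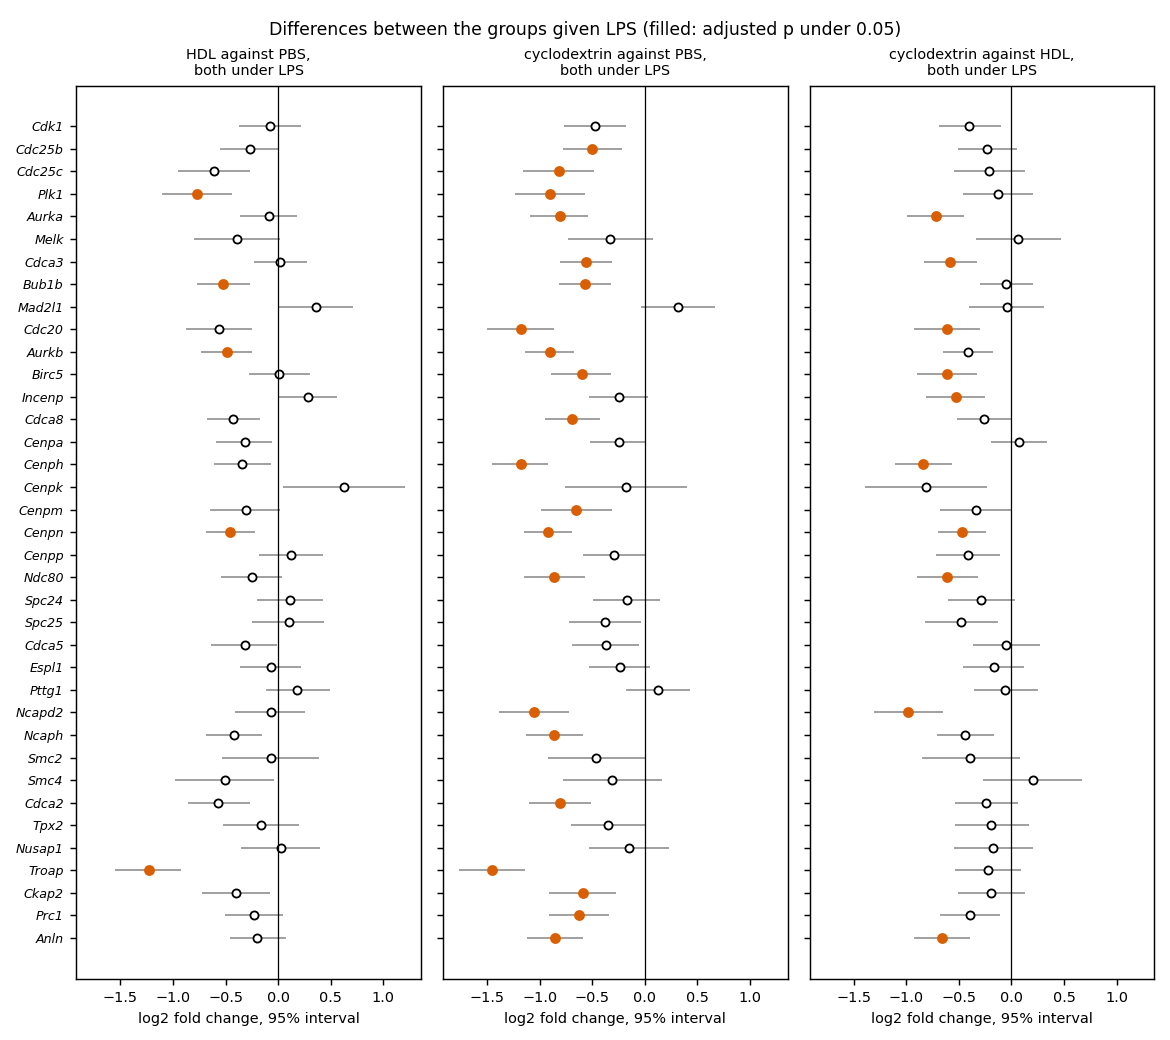
Log2 fold change of each of the 37 genes between groups given LPS, with its 95% interval. Filled points have an adjusted p under 0.05 (5, 21 and 10 genes from left to right). The first and second panels share the PBS LPS arrays. In the middle panel 35 points lie below 0. Where a gene was below background on all arrays of a group, as Troap and Cdca2 were after HDL and cyclodextrin, the point is a fitted value and not a measured fold.

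By the probes used, the agents differed most in Ncapd2, Aurka and Anln, by size of the measured direct difference among the 10 called, and in Cenph by at least 1.57-fold. The other 6 were Cdc20, Birc5, Ndc80, Cdca3, Incenp and Cenpn (-0.61 to -0.47). The place of Ncapd2 rests on the probe used, since its other probes lay at -0.02 ± 0.17 and -0.58 ± 0.22 against HDL, neither called. The genes called after HDL were Plk1, Bub1b, Aurkb, Cenpn and Troap. With HDL the count of 5 rests on single arrays: it was 2 without array 3, 1, 1 and 2 without arrays 7, 8 and 9, 1, 2 and 1 without arrays 16, 17 and 18, and 2 without array 22. Between the agents the count of 10 was 3 and 6 without arrays 16 and 18 and 4, 6 and 3 without arrays 22, 23 and 24. The count of 21 stayed between 16 and 21.

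Counts of groups that did not overlap, which use no threshold, gave the same ordering of the comparisons. With LPS, 33 genes had every array lower, where 40.6% of all genes tested did. After HDL it was 15 of 37 (13.8% of all genes), after cyclodextrin 26 (13.4%), and between cyclodextrin and HDL 20 (11.8%).

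Several other values differed between the groups. The cyclodextrin arrays detected 29 or 30 of the 37 genes, the HDL arrays 30 or 31, the PBS LPS arrays 34 or 35 and the arrays without LPS all 37, beside the lower share of probes detected overall. Pf4, the megakaryocyte gene that passed, was at 5853 to 6331 in linear signal after cyclodextrin, 8294 to 10118 after HDL, 7454 to 8977 with PBS and LPS and 6727 to 9135 without LPS, with Itga2b on no array. The fibroblast gene Dcn was at 12.8 to 18.2 after cyclodextrin, 25 to 50.4 after HDL, 34.0 to 41.7 with PBS and LPS and 7.71 to 12.1 without LPS, with Col1a1, Col1a2, Col3a1 and Lum on no array. Itgax and Siglech together were at 42.0 to 59.9 after cyclodextrin, 58.7 to 61.4 after HDL, 62.6 to 101 with PBS and LPS and 34.3 to 62.4 without LPS, with Flt3 on no array. Cd79b was at 44.2 to 74.9, 53.2 to 82.9, 70.8 to 93.1 and 96.9 to 107 in the same order. Among the LPS groups, the cyclodextrin arrays lay below the PBS arrays for Pf4, Dcn and the summed Itgax and Siglech, the HDL arrays did so for the last of these, and Cd79b overlapped. The summed macrophage markers were at 82683 to 83586 after cyclodextrin, 77051 to 83321 after HDL, 84028 to 86753 with PBS and LPS and 56702 to 60191 without LPS. For this sum too, the cyclodextrin and the HDL arrays lay below the PBS LPS arrays. The 5 neutrophil genes were at 852 to 1039 after cyclodextrin, 743 to 1076 after HDL, 793 to 866 with PBS and LPS and 524 to 621 without LPS. The part of these values in the results was not tested.

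Of the 37 tested genes, 19 had more than 1 passing probe. In a fit over all passing probes, each of the 17 such genes whose used probe was lower with LPS had its other probes called lower as well. After cyclodextrin 11 such genes had their used probe called lower, and for 5 of them all other probes were called too (Birc5, Cdc25c, Cdca8, Cenpm and Cenpn). The other 6 were Troap, Ncapd2, Bub1b, Cdc20, Cdca3 and Ncaph, whose other probes ranged from -0.75 to 0.50. Against HDL it was 1 of 4, and after HDL 0 of 1 (Troap).

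**Figure D5:**
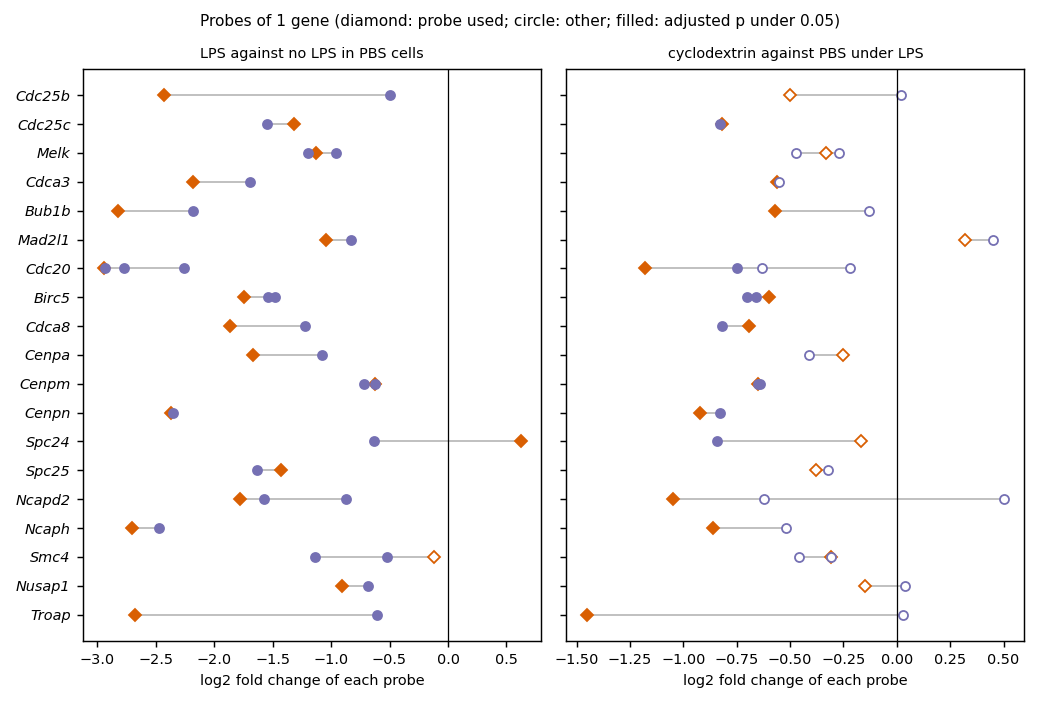
Log2 fold change of every passing probe of the 19 genes with more than 1, for LPS (left) and cyclodextrin (right). Diamonds mark the probe used, circles the others, and filled symbols an adjusted p under 0.05 in the fit over probes. Spc24 has probes on both sides of 0 with LPS, and Troap and Ncapd2 have another probe near or above 0 after cyclodextrin.

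The rest of the division machinery was read from lists of genes outside the 51. Of 10 mitotic kinesins, the motors of the spindle, 10 were lower with LPS, 4 after HDL, 8 after cyclodextrin and 3 against HDL, with 0 higher in each. Of all genes tested, 38.4%, 1.10%, 2.71% and 1.53% were lower in the same order. A gene given as a bound below was under background on one side, so it has no place in an order of size. With LPS the largest changes were in Kif20b (-3.10 ± 0.17), Kif23 (-3.07 ± 0.14) and Kif18b (-2.75 ± 0.12). After HDL they were in Kif2c (-1.03 ± 0.18), Kif23 (-0.73 ± 0.14) and Kif22 (-0.64 ± 0.14). After cyclodextrin Kif2c (-1.54 ± 0.18) and Kif23 (-1.27 ± 0.14) had the largest measured changes, and Kifc1 was at least 2.31-fold and Kif11 at least 1.94-fold lower. Against HDL the called genes were Kif23 (-0.55 ± 0.14), Kif11 (at least 1.25-fold lower) and Kif18b (adjusted p = 0.0145), which was detected on 1 HDL and 0 cyclodextrin arrays, so no fold is given.

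Of 60 other mitosis genes, among them cohesin subunits, the anaphase-promoting complex and further kinetochore genes, 43 were lower and 2 higher with LPS. Of all genes, 38.4% and 22.2% were. The 2 were the cohesin subunits Stag1 (0.39 ± 0.12) and Stag2 (1.04 ± 0.15). Depdc1b was at least 6.40-fold, Mybl2 at least 6.10-fold, Ska3 at least 5.35-fold and Esco2 at least 5.25-fold lower, all 4 below background on the PBS LPS arrays. A gene that passed the filter only through the arrays without LPS had to be lower with LPS, so its fall is no separate evidence. After HDL limma called 0 of the 60, with 8 lower and 4 higher at an unadjusted p under 0.05 (9.32% and 8.55% of all genes). After cyclodextrin 11 were lower and 0 higher, where 2.71% and 2.37% of all genes were. Among the 11 were Ckap2l (-1.0 ± 0.18), the centromeric shugoshin Sgo2a (at least 1.74-fold) and the kinetochore gene Ska2 (at least 1.36-fold). Between the agents 4 were lower and 0 higher, where 1.53% and 1.24% of all genes were. Among the 4 were Top2a (-1.14 ± 0.20), Kntc1 (-0.93 ± 0.15), Spag5 (-0.67 ± 0.16) and Sgo2a.

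DNA replication and nucleotide synthesis genes (37 tested) were lower with LPS in 33 cases and higher in 1, where 38.4% and 22.2% of all genes were. Uhrf1 (-3.25 ± 0.14), Cdc7 (-3.18 ± 0.17) and Cdc6 (-2.80 ± 0.21) were at the extreme. After HDL limma called 0, with 2 lower and 2 higher at an unadjusted p under 0.05 (the same 9.32% and 8.55%). After cyclodextrin 5 were lower and 1 higher (Rfc3, 0.56 ± 0.12), where 2.71% and 2.37% of all genes were. Among the 5 were the helicase subunit Mcm7 (-1.06 ± 0.15), the ribonucleotide reductase gene Rrm1 (-0.67 ± 0.15) and Pole (at least 1.72-fold lower). Against HDL 4 were lower and 1 higher, where 1.53% and 1.24% of all genes were. Mcm3 (-1.07 ± 0.18), Rrm1 (-1.03 ± 0.15) and Mcm7 (-0.94 ± 0.15) led the 4.

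Of 11 CDK inhibitors, pocket proteins, E2F factors and related regulators, 4 were higher and 5 lower with LPS. Of all genes, 22.2% were higher and 38.4% lower, and the 45.5% lower in this list is near that share. E2f2 (-3.40 ± 0.18), E2f1 (-2.03 ± 0.17) and the CDK inhibitor Cdkn2c (-2.0 ± 0.14) changed most, and the pocket protein Rbl1 was higher (1.63 ± 0.16). After HDL limma called 0, with 2 lower and 1 higher at an unadjusted p under 0.05 (again 9.32% and 8.55%). After cyclodextrin the CDK inhibitor Cdkn1c was the 1 called, higher than after PBS (1.83 ± 0.13, adjusted p = 1.48e-05) and than after HDL (2.02 ± 0.13, 1.95e-06). Of all genes, 2.37% were called higher against PBS and 1.24% against HDL.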

How the data were processed

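RNA of 12 samples was read on Illumina mouse bead arrays, 3 in each of 4 groups. The authors deposited a non-normalized table of signals with a detection p-value for each probe and array, and a table of processed values whose normalization the sources at hand do not name. GenomeStudio is named in the submitters' processing notes. Most signals in the deposited tables had lost their decimal mark, so the signal was rebuilt here. Of 543372 values 10998 (2.02%) kept the point. The point was placed by the detection p-value for 410277 (75.5%) and by the number of digits for 8531 (1.57%). For 111156 (20.5%) the ratio of the authors' processed value to the signal placed it, set against that array's curve of this ratio over signal. For 2410 (0.444%) the other arrays placed it. For the 37 genes described, 251 of 444 values (56.5%) were placed by one of the last 2 rules, on all 12 arrays for Birc5 and Tpx2. Of 2446 values with a known point that were hidden and placed again, 1 (0.0409%) was wrong, and the placing rule was adjusted while looking at this test. The point of each processed value was set nearest to the rebuilt signal, so the authors' values are no independent check of the placing.

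Signals were background-corrected with the detection p-values, quantile normalized and put on the log2 scale with an offset of 16 (neqc in limma 3.58.1, R 4.3.3). Of 45281 probes 18364 were detected, at a detection p-value under 0.05, on at least 3 arrays. Gene symbols came from GEO's platform annotation: 34885 probes had 1 symbol, 18 several and 10378 none. Of the 34885, 34807 had an Entrez identifier in the reference and 0 symbols changed. With 15497 detected probes of 1 symbol, 9795 genes were tested, 3838 of them with more than 1 passing probe. limma's lmFit and eBayes fitted a mean per group over the 12 arrays (8 residual and 6.06 prior degrees of freedom), with adjustment over all 9795 genes, and the fit was tested on simulated data. The number of arrays limits the precision. The design was planned for whole intensities, and the test stayed as planned on the rebuilt signal. A gene above background on none of the arrays of the dimmer group has a bound in place of a fold, set by the lowest signal among detected probes. Where that bound did not exceed no change, no fold is given. A gene detected on only some arrays of the dimmer group has its fitted change.

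The genes and lists were chosen with earlier results of these data known. All 51 genes are named. Per-array values are printed for 20 detected genes picked by name and for 3 others called in at least 2 of the comparisons between LPS groups (Cdca3, Cenph and Ncapd2). From the companion lists at most 3 called genes per comparison are named, by size of the fitted change, which does not rank genes below background. Mybl2, Kif23 after cyclodextrin and any gene that makes up a count of 5 or fewer were named after their values were seen. Alternatives were no background correction, median scaling, an offset of 50, no detection filter, a stricter one, the mean of probes, the authors' processed values (column median 73.7, scale not stated, taken as linear), a fit of 2 groups alone, array weights, limma's trend, and each array left out. A filter on all 12 arrays was added after seeing the data. Tables and figures used Python 3.11.15, numpy 2.4.6, pandas 2.3.3 and matplotlib 3.10.9.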

Additional observations from a re-analysis of the deposited data

Results flagged for a closer look

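In 10 genes the effect of cyclodextrin differed from that of HDL by a direct test between the treated groups (limma, adjusted over all 9795 genes, 3 arrays against 3). The difference, cyclodextrin minus HDL in log2, was -0.98 in Ncapd2, -0.84 in Cenph (below background on the cyclodextrin arrays, so at least 1.57-fold), -0.72 in Aurka, -0.66 in Anln, -0.61 in each of Cdc20, Birc5 and Ndc80, -0.58 in Cdca3, -0.53 in Incenp and -0.47 in Cenpn. Every cyclodextrin array was lower than every HDL array in each of the 10. Ncapd2, Cenph and Aurka kept the call whichever array was left out, with adjusted p up to 0.0271, 0.0169 and 0.0415, but Ncapd2 lost it with the mean of its probes and Aurka in a fit of the 2 groups alone. Cenph kept it in all 22 alternatives that gave it a value. Each of the other 7 lost it without at least 3 of the 12 arrays. The 2 agents also differed in contact time, and the cyclodextrin arrays detected fewer probes, whose part was not tested. Groups of 3 arrays were not examined for single outlying arrays.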

How the results depend on the processing

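Calls of single genes, or their absence, were kept in 3168 values over 23 alternatives, with 149 calls lost, 37 gained and 6 directions turned. Direction was compared only where the main fit or the alternative made a call. Uncalled values that changed sign are therefore among the 3168, as for Smc4 with LPS (-0.12, range -0.59 to 0.04). Turned were Spc24 with LPS under the mean of probes (0.00), Troap with probes detected on all 12 arrays (0.09 after HDL, 0.03 after cyclodextrin), and Cdc25b after cyclodextrin without array 1, 2 or 3 (0.02 each, in a range of -0.59 to 0.02 over the arrays left out), and in all 6 another probe enters. With LPS the median over the genes was -1.51 without background correction, -2.06 with median scaling, -1.66 with an offset of 50, -1.36 with no detection filter, -1.59 with the mean of probes, -1.62 in the authors' processed values and -1.86 to -1.65 with 1 array left out. The 33 lower calls became 31 to 33 and the 3 higher calls 2 to 3 with 1 array left out, and 1 gene was higher with median scaling. After HDL the 5 lower calls became 2 with median scaling, 3 with the mean of probes, 2 in a fit of the 2 groups alone, 9 with array weights and 1 to 7 with 1 array left out. Its median was -0.16 without background correction, -0.13 with no filter, -0.16 with the mean of probes, -0.09 with probes detected on all 12 arrays and -0.26 to -0.21 with 1 array left out. After cyclodextrin the lower calls numbered 16 to 21 with 1 array left out, and the median was -0.40 without background correction, -0.71 with median scaling, -0.46 with an offset of 50, -0.36 with no filter, -0.43 in the authors' values and -0.60 to -0.53 with 1 array left out. Between the agents the 10 lower calls became 17 with median scaling, 2 in a fit of the 2 groups alone and 3 to 10 with 1 array left out, and the median was -0.23 without background correction, -0.50 with median scaling, -0.20 with no filter, -0.24 in the authors' values and -0.36 to -0.30 with 1 array left out. The cause of these moves was not tested.

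Under median scaling the all-gene median went from -0.14 to -0.42 with LPS, from 0.00 to -0.11 after cyclodextrin and from 0.01 to -0.14 between the agents, so its medians for these genes are to be read relative to those. The share of lower among all calls went from 63.4 to 77.7% with LPS, from 58.1 to 43.3% after HDL, from 53.3 to 82.9% after cyclodextrin and from 55.4 to 91.3% between the agents. Slide could not be fitted as a block, since the headers used here name no slides, and both planned forms of median scaling are the same computation. No paired analysis was possible because the labels give the groups no shared replicate numbers. Genes near background have changes that are understated or only bounded.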
